A study of Mus musculus with 27 samples.

Results

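The change of the response to parathyroid hormone (PTH) between 1 and 6 h was measured in KUSA4b10 cells, a mouse marrow stromal line with the capacity to become osteoblast-like. Cells received PTH(1–34) at 10 nM for 6 h or 1 h, and each treated group was set against untreated control cells of the same time. The change of effect was the PTH minus control difference at 6 h less the PTH minus control difference at 1 h. It rested on 12 of the 27 arrays of the study, 3 in each of these 4 groups. PTH and control arrays of 24 h, 3 each, served as a later readout. Their means do not enter the change of effect, but all 27 arrays share the estimate of spread per gene. Arrays of cells given PTHrP(1–141) at 20 nM are mentioned for some genes. Total RNA of whole cultures was measured, every group came from the same cell line, no allele or other agent is labelled, and the labels do not say whether replicates were separate cultures. All values are log2 of array intensity, so a difference of 1 is a doubling of intensity.

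PTH acts on osteoblasts and their precursors through the receptor encoded by Pth1r, a G protein-coupled receptor that raises cyclic AMP and activates protein kinase A. The kinase phosphorylates CREB, which binds cyclic AMP response elements in promoters and quickly raises early genes such as those of the FOS, NR4A and salt-inducible kinase families. Many early products are transcription factors, mRNA decay factors or feedback inhibitors, and a later set of genes follows them. In bone, PTH is known to raise the osteoclast-forming cytokine RANKL (Tnfsf11), to lower its decoy receptor osteoprotegerin (Tnfrsf11b) and to lower genes of late osteoblasts and osteocytes.

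The arrays within each of the 4 groups agreed closely, with correlations across probe sets of 0.9953 to 0.998. Of 10 stromal and osteoblast markers, 8 had a probe set with 1 gene symbol. All 8 were above the detection filter, and Col1a1 was among the brightest. Its change of effect was -0.09, not called. Of these 8 markers, 2 had a called change, both lower, Sp7 at -1.76 and Pth1r at -1.16. Of 6 macrophage and blood markers, Ptprc and Itgam were below the filter and none of the other 4 had a called change. The 3 adipocyte markers that had a probe set with 1 gene symbol were all above the filter. Their summed intensities were 4261 to 5003 in PTH at 6 h and 4041 to 5987 in control at 6 h. At 1 h they were 3927 to 6248 in PTH and 3744 to 5601 in control. No adipocyte, muscle or endothelial marker had a called change, and 1 of 4 chondrocyte markers, Sox9, did. The log2 ratio of the 3′ over the 5′ probe set of Actb, a sign of RNA integrity, was 0.337 ± 0.0089 in PTH at 6 h and 0.254 ± 0.0461 in control at 6 h, and 0.269 ± 0.0189 in PTH at 1 h and 0.229 ± 0.0215 in control at 1 h (SD, n = 3 each). Its part in the results was not tested. In cultures measured in bulk, fewer cells of a type and less RNA per cell cannot be told apart.

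Of 15711 genes tested, 2914 (18.5%) had a PTH effect that differed between 6 h and 1 h, by limma at a Benjamini-Hochberg adjusted p under 0.05, here "called". The effect was higher at 6 h than at 1 h for 1020 genes (6.49%) and lower for 1894 (12.1%). After a further scaling of the arrays by cyclic loess the split was 1432 against 1751, so the excess of lower over higher changes was smaller under that scaling, with 45.0% of called changes higher in place of 35.0%. Over all genes tested the median change was 0.03, and 504 of the called changes were over 2-fold. PTH raised 1789 genes (11.4%) and lowered 2816 (17.9%) at 6 h, against 226 raised (1.44%) and 47 lowered (0.299%) at 1 h.

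The called changes were sorted by the effect at each time. A growing response was called at 6 h and was larger there than at 1 h, with the 1 h effect either not called (late) or called with the same sign (building). A fading response was called at 1 h and smaller at 6 h, with the 6 h effect either called with the same sign (declining) or not called (faded). A reversing response was called at both times with opposite signs. Growing responses made up 2704 of the 2914 genes. PTH was above control at 6 h in 939 of them (5.98% of genes tested) and below control in 1765 (11.2%). Only 72 genes faded: 63 had been raised at 1 h (0.401%) and 9 had been lowered (0.0573%). Reversing responses numbered 15 (0.0955%), and 123 called changes met none of the 3 definitions. Since the definitions use the effects at both times, these counts describe the classes and test nothing further.

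**Figure D1:**
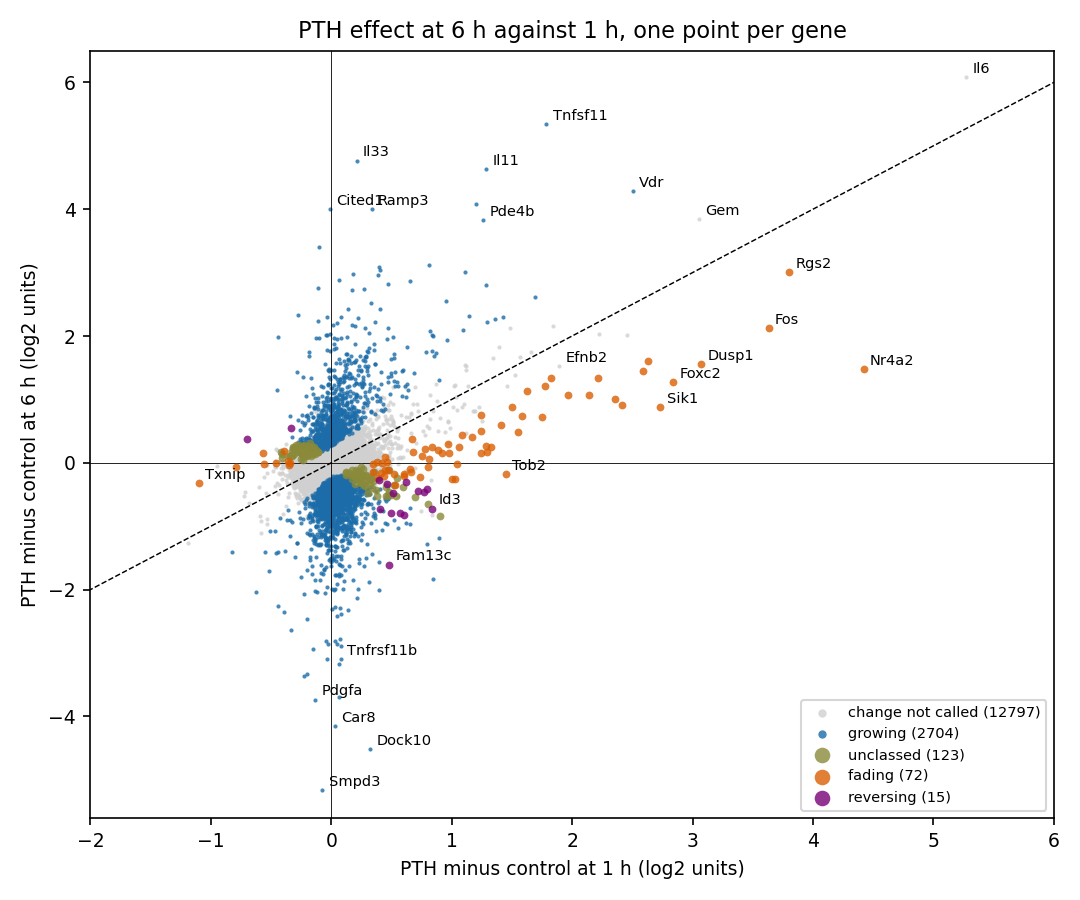
Effect of PTH at 6 h (vertical axis) against its effect at 1 h (horizontal axis), both as PTH minus control in log2 units, with 1 point per gene for 15711 genes and colours for the response classes. The dashed line marks equal effects. Growing genes spread up and down the vertical axis near an effect of 0 at 1 h, the 72 fading genes lie mostly at the right under the line, and the 15 reversing genes lie in the quadrants of opposite sign.

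Late responses far outnumbered building ones. Of the 939 genes raised in a growing way, 886 had no called effect at 1 h and 53 were already raised then, while of the 1765 lowered genes 1756 had no called effect at 1 h and 9 were already lowered. Seen from 1 h, of the 273 genes called then, 62 grew, 72 faded, 15 reversed and 124 had no called change of effect. The late and building raised genes had median effects at 6 h of 0.61 and 1.69, and median effects at 1 h of 0.01 and 0.63.

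Among the genes with the largest growing rise were secreted factors and receptor partners. Il33, an interleukin-1 family cytokine, measured 9.49, 9.69 and 9.99 in PTH at 6 h, against 5.03, 4.82 and 5.02 in control at 6 h. At 1 h it measured 5.39, 5.12 and 5.50 in PTH and 5.08, 5.18 and 5.12 in control. Only the PTH arrays of 6 h were high, and those did not overlap the controls of the same time. This gave a change of effect of 4.55 ± 0.23 (SE; adjusted p = 5.21e-13, limma). Cited1, a transcriptional coregulator that binds CBP and p300, showed 9.71, 9.75 and 9.96 in PTH at 6 h, against 5.69, 5.80 and 5.93 in control at 6 h. At 1 h its PTH arrays, at 5.95, 5.91 and 5.98, lay among the control arrays, at 5.97, 6.03 and 5.88, and the change of effect was 4.01 ± 0.16 (adjusted p = 1.18e-14, limma). Ramp3, which encodes a membrane protein that modifies the ligand choice of receptors related to the PTH receptor, was highest in PTH at 6 h, with 10.43, 10.81 and 10.75, against 6.53, 6.75 and 6.71 in control at 6 h. Its change of effect was 3.66 ± 0.15 (adjusted p = 1.32e-14, limma). Prg4, which encodes the lubricating proteoglycan lubricin, had a change of 3.5 ± 0.25 (adjusted p = 2.49e-10, limma), and its PTH effect was 3.40 ± 0.18 at 6 h and -0.10 ± 0.18 at 1 h.

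Tnfsf11 and Il11 were raised at both times and more at 6 h. Tnfsf11, which encodes RANKL, measured 10.26, 10.57 and 10.52 in PTH at 6 h, against 5.35, 5.30 and 4.66 in control at 6 h, and 7.52, 7.81 and 8.0 in PTH at 1 h, against 6.19, 5.76 and 6.02 in control at 1 h. PTH and control arrays did not overlap at either time. The effect was 5.35 ± 0.27 at 6 h (40.7-fold) and 1.79 ± 0.27 at 1 h (3.45-fold), a change of 3.56 ± 0.39 (adjusted p = 2.65e-07, limma). Il11, a cytokine that signals through gp130, was 24.8-fold higher in PTH than in control at 6 h and 2.44-fold higher at 1 h. Its change of effect was 3.35 ± 0.17 (adjusted p = 6.26e-13, limma). Vdr, which encodes the vitamin D receptor, belonged to the same building group with effects of 4.29 ± 0.22 at 6 h and 2.51 ± 0.22 at 1 h. Bcl3, a nuclear partner of NF-kappa B, had effects of 2.56 ± 0.11 at 6 h and 0.95 ± 0.11 at 1 h.

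The largest growing falls were in genes with no called effect at 1 h. Smpd3, which encodes a neutral sphingomyelinase needed for normal bone mineralization in mice, measured 6.33, 6.45 and 5.35 in PTH at 6 h, against 11.17, 11.22 and 11.21 in control at 6 h. At 1 h the values were 11.10, 11.15 and 11.22 in PTH and 11.15, 11.26 and 11.27 in control. The PTH arrays of 6 h stood alone at the low end and the other 9 lay within 0.2 of each other. Its change of effect was -5.08 ± 0.26, a 33.9-fold fall (adjusted p = 5.21e-13, limma). Dock10 fell with a change of -4.84 ± 0.40 (adjusted p = 2.91e-09, limma), and its other probe set gave -1.71. Car8, a carbonic anhydrase-related protein without enzyme activity, had a change of -4.19 ± 0.21 (adjusted p = 6.01e-13, limma). The other Car8 probe set gave only -0.62. Pdgfa, which encodes a platelet-derived growth factor chain, measured 8.24, 8.5 and 8.44 in PTH at 6 h, against 12.14, 12.10 and 12.15 in control at 6 h, with a change of -3.60 ± 0.12 (adjusted p = 9.19e-16, limma). The remaining pair of the 6 genes named by size were both transcription factors. Mef2c, known for its part in osteocyte gene expression, had a change of -3.75 ± 0.39 and Tbx2 one of -3.23 ± 0.29.

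**Figure D2:**
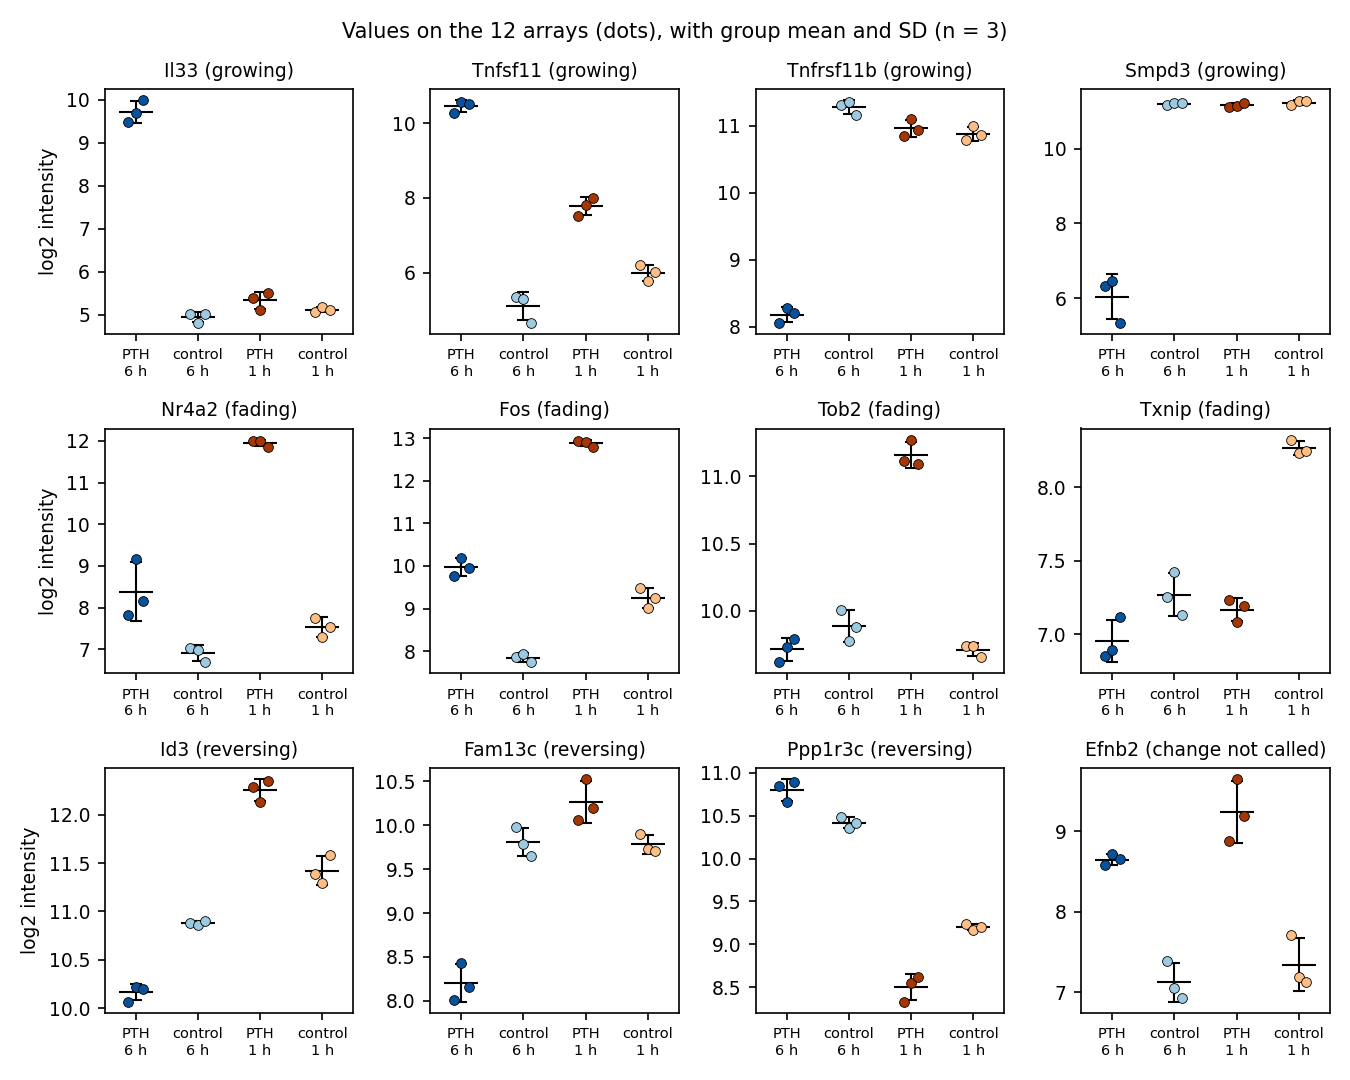
Log2 intensity of 12 genes on each of the 12 arrays (dots, left to right PTH at 6 h, control at 6 h, PTH at 1 h, control at 1 h), with the group mean and SD (n = 3). The vertical axes differ and do not start at 0. Growing genes (top row) stand apart in PTH at 6 h, Nr4a2, Fos and Tob2 in PTH at 1 h, and Id3 and Fam13c lie above control at 1 h and below it at 6 h.

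Factors through which stromal cells regulate osteoclasts changed in both directions. Of 16 tested, 8 had a called change, 4 higher and 4 lower, and all 8 were growing. The 4 higher ones became 2 without replicate 2 of PTH at 6 h, replicate 1 or 3 of control at 6 h, replicate 3 of PTH at 1 h, or replicate 1 or 3 of control at 1 h, and the 4 lower ones stayed 4 without each array in turn. The list's median change was 0.12, against 0.03 over all genes, and 18.5% of all genes were called. Opposite to Tnfsf11, its decoy receptor gene Tnfrsf11b measured 8.06, 8.27 and 8.20 in PTH at 6 h, against 11.31, 11.36 and 11.16 in control at 6 h. At 1 h the PTH arrays, at 10.84, 11.09 and 10.94, overlapped the control arrays, at 10.79, 10.99 and 10.85. For Tnfrsf11b the effect changed by -3.18 ± 0.20 (adjusted p = 2.35e-11, limma). Sema3a, a guidance protein that also restrains osteoclasts in mice, had a change of -1.09 ± 0.20.

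Of 15 mineralization and osteocyte genes tested, 8 were called (53.3%), all growing, with 5 lower and 3 higher. Over all genes tested 18.5% were called, 1894 lower and 1020 higher, and 2704 of those 2914 were growing. Dmp1, a matrix protein of osteocytes, measured 4.96, 5.34 and 4.59 in PTH at 6 h, against 8.13, 8.91 and 7.94 in control at 6 h. The PTH arrays of 6 h lay below every control array, whereas at 1 h PTH arrays measured 8.73, 9.08 and 9.27 and control arrays 9.18, 9.29 and 9.30. Its change was -3.13 ± 0.48 (adjusted p = 2.98e-05, limma). Panx3, a channel protein of osteoblasts, changed by -2.83 ± 0.23. The other Panx3 probe sets gave -1.32, called, and -0.47, not called. In the other direction Mgp, an inhibitor of calcification, changed by 1.28 ± 0.12. Sost, the osteocyte inhibitor of Wnt signalling that PTH lowers in bone, lay near the detection filter on all 12 arrays. It measured 5.12, 4.99 and 5.92 in PTH at 6 h and 5.02, 5.22 and 5.37 in control at 6 h, and its change of 0.11 ± 0.23 was not called.

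Transcription factors of the osteoblast lineage were called in 14 of 23 cases (60.9%), against 18.5% of all genes tested. Their changes were lower in 11 and higher in 3, against 1894 and 1020 over all genes. The called factors were spread over all classes, 11 growing, 2 fading and 1 reversing. Sp7 (osterix), which is required for osteoblast formation, measured 9.30, 9.13 and 9.30 in PTH at 6 h, against 11.08, 11.12 and 11.09 in control at 6 h, a change of -1.76 ± 0.16 (adjusted p = 1.08e-08, limma). Zfp521, a zinc finger regulator of the lineage, changed by -1.92 ± 0.18, which holds for the brighter of its 2 probe sets, while the other had a change of -0.05. Matrix genes gave 11 called of 41 (26.8%), with Vcan (versican) at 2.55 ± 0.25 and Thbs1 (thrombospondin) at -1.5 ± 0.14. The other Vcan probe sets gave 2.36 and 2.12, called, and -0.20 and 0.27, not called.

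Components of PTH signalling had called changes in both directions. Of 29 genes for the receptor, G proteins, adenylyl cyclases, protein kinase A and receptor-modifying proteins, 11 were called (37.9%), 8 lower and 3 higher, and all were growing. Over all genes tested 18.5% were called, 1894 lower and 1020 higher, so lower changes also prevailed in general. Pth1r measured 10.33, 10.10 and 10.29 in PTH at 6 h, against 11.29, 11.39 and 11.38 in control at 6 h, while at 1 h PTH arrays, at 11.08, 11.21 and 11.20, overlapped control arrays, at 11.02, 11.19 and 11.14. For Pth1r the effect changed by -1.16 ± 0.13 (adjusted p = 6.19e-07, limma). Prkar2b, a regulatory subunit of protein kinase A, changed by -1.59 ± 0.14. Besides Ramp3, Arrb1 rose, with a change of 2.22 ± 0.21 (adjusted p = 2.19e-08, limma), and it encodes an arrestin that uncouples such receptors. The phosphodiesterases, which degrade cyclic nucleotides, had 5 called of 17 (29.4%). Pde4b had a change of 2.57 ± 0.23 and Pde4d of 1.17 ± 0.22, and both were already raised at 1 h. Pde5a had a change of 1.60 ± 0.20 with no called effect at 1 h. The 4 probe sets of Pde4b had changes from 0.07 to 2.57, of which 2 were called.

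Among gp130 cytokines, receptors and SOCS feedback genes, 9 of 21 were called (42.9%), 7 higher and 2 lower. Over all genes tested 18.5% were called, 6.49% higher and 12.1% lower. The receptor pair moved apart: Osmr, the oncostatin M receptor, changed by 1.84 ± 0.14 and Lifr, the leukaemia inhibitory factor receptor, by -2.47 ± 0.16. The other Osmr probe sets gave 1.99, called, and 0.12, not called. Il6 and Lif themselves had no called change. Il6 measured 10.12, 11.01 and 10.41 in PTH at 6 h, against 4.54, 4.13 and 4.63 in control at 6 h, and 11.72, 11.58 and 10.29 in PTH at 1 h, against 6.61, 5.29 and 5.86 in control at 1 h. Its effects of 6.08 ± 0.37 at 6 h and 5.28 ± 0.37 at 1 h were both called, and their difference of 0.81 ± 0.52 had an adjusted p of 0.327 (limma) and a 95% interval of -0.26 to 1.87.

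Genes of the unfolded protein and integrated stress responses, which are induced when the endoplasmic reticulum or amino acid supply is stressed, were called in 16 of 24 cases, all of them growing and higher. The list's median change was 0.79, against 0.03 over all genes, and without each array in turn 14 to 18 members were called. Over all genes tested 18.5% were called, 6.49% higher. Ddit3 (CHOP) measured 12.34, 12.75 and 12.34 in PTH at 6 h, against 10.55, 10.89 and 10.74 in control at 6 h, with a change of 1.94 ± 0.26 (adjusted p = 5.55e-06, limma). Trib3, a pseudokinase induced by CHOP, measured 10.11, 10.75 and 10.30 in PTH at 6 h, against 8.37, 8.40 and 8.45 in control at 6 h, and 8.51, 9.88 and 8.89 in PTH at 1 h, against 10.14, 8.92 and 9.55 in control at 1 h. Its 1 h arrays were spread over more than 1 log2 unit in both groups, and the untreated arrays moved by -1.13 ± 0.35 between the times. For Trib3 the effect changed by 2.43 ± 0.49 (adjusted p = 0.000865, limma). The median of the 24 genes on each array was 10.77, 11.14 and 10.84 in PTH at 6 h and 9.94, 9.86 and 9.76 in control at 6 h. At 1 h it was 10.17, 10.89 and 10.30 in PTH and 10.76, 10.10 and 10.20 in control, where replicate 2 of PTH and replicate 1 of control stood above the other arrays of their groups.

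Sterol synthesis genes were called in 9 of 16 cases, all growing and higher, with a median change of 0.57 and 7 to 10 called without each array in turn. Of all genes tested, 18.5% were called and 6.49% were called higher. Sqle, the squalene epoxidase, measured 11.59, 11.87 and 11.90 in PTH at 6 h, against 10.27, 10.13 and 10.38 in control at 6 h, with a change of 1.22 ± 0.16 (adjusted p = 3.03e-06, limma). Fdft1 (squalene synthase) changed by 1.06 ± 0.15 and Fdps (farnesyl diphosphate synthase) by 0.89 ± 0.19. The other Fdft1 probe sets gave 1.11, called, and 0.19 and 0.13, not called. The NF-kappa B list had 10 called of 18, 9 of them higher. Tnfaip3, a feedback inhibitor of this pathway, changed by 1.09 ± 0.14 and Relb, a subunit, by 0.78 ± 0.15.

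Interferon-stimulated genes went the other way, but with a wide spread between arrays. The list's median change was -0.75. Of 20 tested, 9 were called lower (45%) and none higher, against 12.1% lower and 6.49% higher among all genes tested. The count was 6 without replicate 2 of PTH at 6 h, replicate 3 of control at 6 h, replicate 2 or 3 of PTH at 1 h, or replicate 2 of control at 1 h, and it was 13 without replicate 1 of PTH at 1 h. Ifit1, an antiviral RNA-binding protein, measured 8.51, 6.30 and 8.06 in PTH at 6 h, against 8.0, 8.46 and 8.93 in control at 6 h. Replicate 2 of PTH at 6 h was the low array, and PTH and control overlapped at that time. At 1 h Ifit1 measured 10.07, 10.53 and 10.25 in PTH and 9.60, 8.96 and 9.58 in control, and its change of -1.74 ± 0.56 had an adjusted p of 0.0288 (limma) and was not called in 6 of the 12 fits that leave out an array. Usp18, which removes the ubiquitin-like modifier ISG15, changed by -2.07 ± 0.53 and Oasl2, an oligoadenylate synthase-like protein, by -2.09 ± 0.57. The list's median on each array was 7.86, 7.09 and 7.60 in PTH at 6 h and 7.63, 8.04 and 8.39 in control at 6 h, and 8.06, 8.83 and 8.55 in PTH at 1 h and 8.23, 7.58 and 7.90 in control at 1 h. For PTHrP, set against the same controls, the change of effect was 0.08 ± 0.56 for Ifit1 and -0.07 ± 0.53 for Usp18.

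The remaining lists are given more briefly. Circadian clock genes had 10 called of 20, with Cry1 at 0.85 ± 0.23, Nr1d2 at -1.22 ± 0.24 and Dbp at -0.87 ± 0.18. The growth factor list had 14 of 34, and besides Pdgfa it held Hbegf, an EGF receptor ligand, at 1.95 ± 0.18 and Nrg1, a neuregulin, at 1.51 ± 0.19. Krüppel-like factors had 8 of 16, among them Klf2 at -1.82 ± 0.19 and Klf4 at -1.44 ± 0.20. In the matrix protease list, 8 of 22 were called, including the inhibitor Timp1 at 1.40 ± 0.12. IGF axis genes had 6 of 14, with the adaptor Irs1 at -1.09 ± 0.12. The 6 became 3 without replicate 2 of PTH at 6 h, replicate 1 or 2 of control at 6 h, replicate 3 of PTH at 1 h, or replicate 3 of control at 1 h. Wnt pathway genes (9 of 41) and glycolysis and hypoxia genes (4 of 21, and 2 without replicate 1 of PTH at 6 h) lay near the 18.5% of all genes, with the Wnt inhibitor Sfrp1 at 1.81 ± 0.16 and the glucose transporter Slc2a1 at 1.19 ± 0.29. Replication and mitosis genes had 9 of 34, with Mcm6 at -1.0 ± 0.18 and Ccnd1 at -0.66 ± 0.12. Chemokine ligands (1 of 21), regulators of G protein signalling (1 of 14) and heat shock chaperones (1 of 15) had the lowest shares of called members. Under cyclic loess 7 glycolysis and hypoxia genes were called, all higher, and 2 chemokines and 2 heat shock genes.

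**Figure D3:**
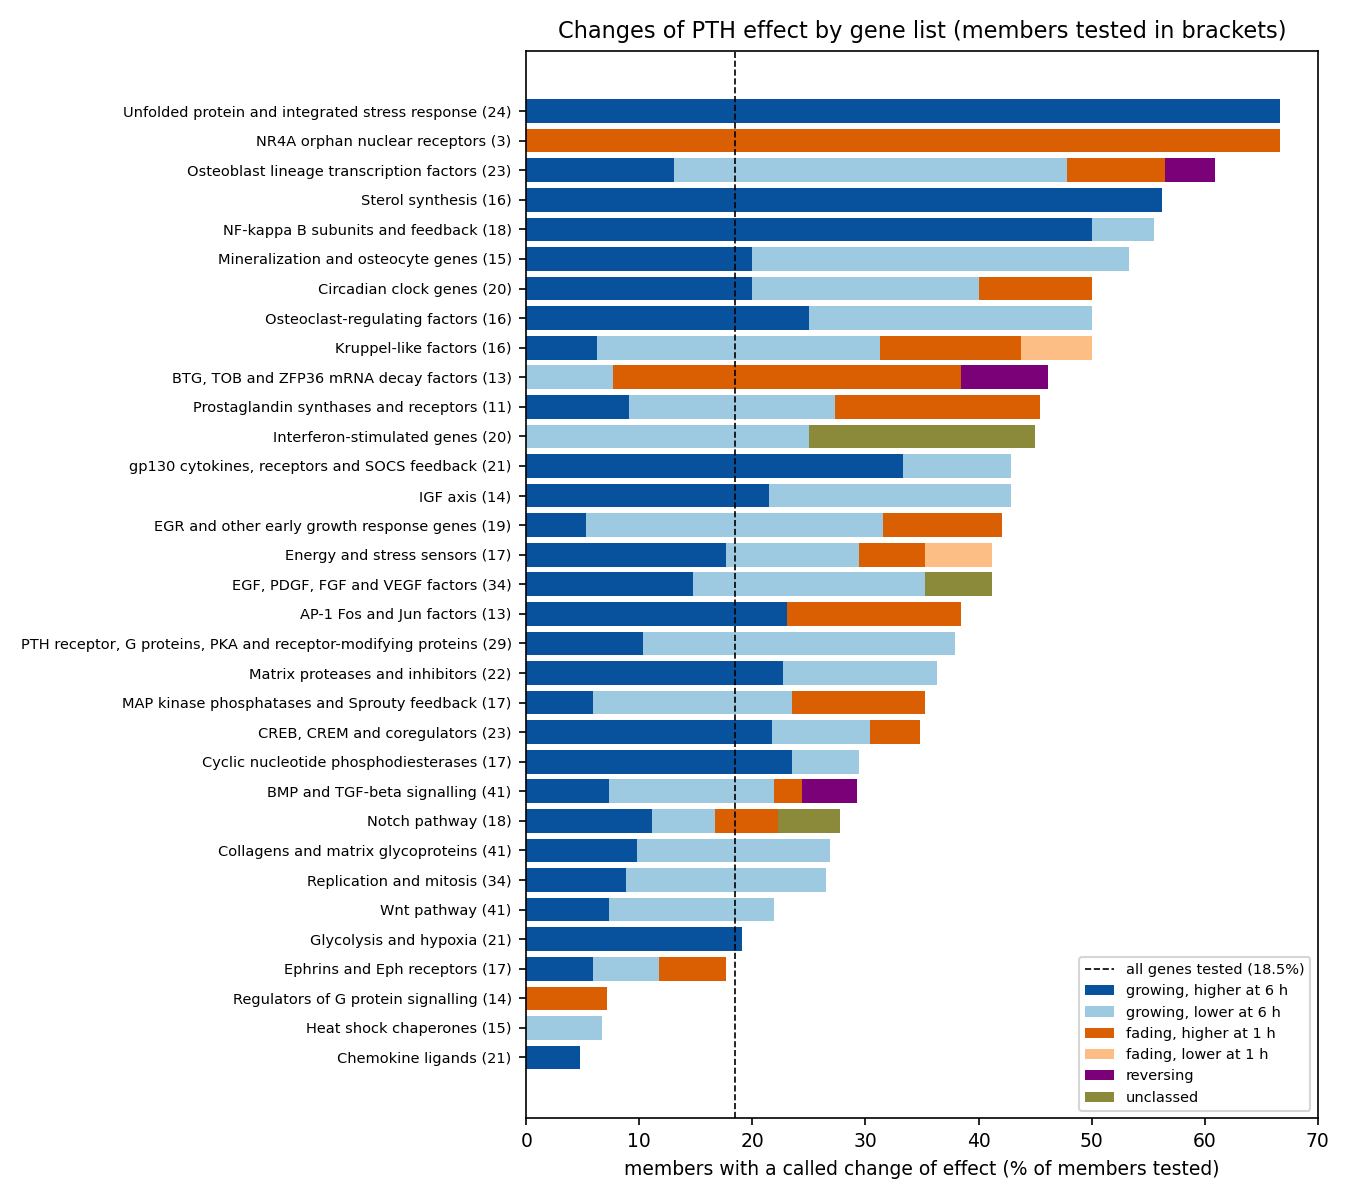
Share of tested members with a called change of effect in each of the 33 gene lists (horizontal axis, percent; members tested in brackets), coloured by response class, with the dashed line at the 18.5% of all genes tested. Stress response and sterol lists hold growing, higher members alone, called members of the NR4A and mRNA decay lists are mostly fading, and osteoblast transcription factors hold members of every main class.

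Fading genes included early genes of the NR4A and FOS families. Of 19 genes in the list of EGR and other early growth response genes, 8 were called, 2 fading, 5 growing lower and 1 growing higher. Among all genes tested, 18.5% were called. The 63 fading genes raised at 1 h had changes of effect between -2.95 and -0.29, with a median effect of 0.21 at 6 h and 1.05 at 1 h, and 27 of them were still called higher at 6 h. Nr4a2, an orphan nuclear receptor, measured 7.82, 9.17 and 8.15 in PTH at 6 h, against 7.04, 6.98 and 6.69 in control at 6 h. At 1 h it measured 12, 11.99 and 11.86 in PTH, against 7.76, 7.29 and 7.54 in control. PTH lay above control at both times, by 1.47 ± 0.24 at 6 h and 4.42 ± 0.24 at 1 h, and the change of effect was -2.95 ± 0.33 (adjusted p = 4.85e-07, limma). Of its 6 probe sets tested, 4 were called in this direction and 1 was flat, with 0.03. Nr4a1 had a change of -1.02 ± 0.18. For Nr4a3 the probe sets disagreed: the brightest, used here, had a change of 0.09 ± 0.19 that was not called, another gave -0.08, and the third gave -1.86 with an effect of 1.47 at 6 h and 3.33 at 1 h.

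Sik1, a salt-inducible kinase that inhibits CREB coactivators, had effects of 0.88 ± 0.15 at 6 h and 2.73 ± 0.15 at 1 h, a change of -1.85 ± 0.21 (adjusted p = 5.39e-07, limma). Fos measured 9.76, 10.18 and 9.96 in PTH at 6 h, against 7.86, 7.94 and 7.74 in control at 6 h, and 12.94, 12.92 and 12.80 in PTH at 1 h, against 9.49, 9.03 and 9.24 in control at 1 h. Its effect declined without ending, at 2.12 ± 0.15 at 6 h and 3.63 ± 0.15 at 1 h, with a change of -1.51 ± 0.21 (adjusted p = 8.79e-06, limma). The AP-1 list as a whole was split, with 5 called of 13 (38.5%, against 18.5% of all genes tested): Fos and Junb faded, while Fosl1, Jun and Maff grew. In 8 of the 12 fits that leave out an array, Fos was the 1 member of the list with a called lower effect. Fosl1, which encodes FRA1, had effects of 3.04 ± 0.14 at 6 h and 0.41 ± 0.14 at 1 h and a change of 2.63 ± 0.20 (adjusted p = 1.03e-09, limma). Foxc2, a forkhead factor, changed by -1.57 ± 0.16.

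Of 13 BTG, TOB and ZFP36 genes tested, which encode proteins that speed mRNA decay or slow proliferation, 6 were called, all with lower effects at 6 h: 4 faded, 1 reversed and 1 grew downward. Of all genes tested, 12.1% had a called lower change and 0.401% were raised at 1 h and faded. Tob2 measured 9.62, 9.73 and 9.79 in PTH at 6 h, against 10.01, 9.78 and 9.88 in control at 6 h, where the groups overlapped. At 1 h it measured 11.12, 11.27 and 11.09 in PTH, against 9.74, 9.74 and 9.65 in control, without overlap, and the change of effect was -1.63 ± 0.12 (adjusted p = 4.55e-10, limma). Tob1 changed by -1.02 ± 0.16, Btg2 by -1.36 ± 0.19 and Zfp36, which encodes tristetraprolin, by -0.74 ± 0.16. Among inhibitors of MAP kinase signalling, Dusp1, a MAP kinase phosphatase, measured 9.85, 10.40 and 10.14 in PTH at 6 h, against 8.56, 8.75 and 8.39 in control at 6 h, and 12.30, 12.13 and 12.03 in PTH at 1 h, against 9.40, 8.77 and 9.08 in control at 1 h. The change of effect of Dusp1 was -1.51 ± 0.23 (adjusted p = 3.86e-05, limma). Spry2, a Sprouty inhibitor, had effects of -0.26 ± 0.11 at 6 h, not called, and 1.03 ± 0.11 at 1 h, and its dimmer probe set had a change of 0.08.

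Rgs2, which speeds the shut-off of G proteins, also faded but stayed far above control, with effects, on its brightest probe set, of 3.0 ± 0.14 at 6 h and 3.80 ± 0.14 at 1 h and a change of -0.80 ± 0.20 (adjusted p = 0.00499, limma). Smad6, an inhibitor of BMP signalling, measured 8.01, 7.83 and 8.07 in PTH at 6 h, against 7.72, 7.86 and 7.86 in control at 6 h, with the arrays overlapping, and 9.20, 9.40 and 9.57 in PTH at 1 h, against 8.20, 8.10 and 8.15 in control at 1 h. Its change of effect was -1.08 ± 0.18 (adjusted p = 0.000116, limma). Epha2, an Eph receptor tyrosine kinase, had a change of -1.26 ± 0.19. Ptgs2, the inducible prostaglandin synthase, had a change of -1.02 ± 0.30, and it was not called in 3 of the 12 fits that leave out an array.

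The 9 genes lowered at 1 h and not called at 6 h had changes between 0.32 and 0.79. Txnip, which binds thioredoxin and limits glucose uptake, measured 6.85, 6.89 and 7.12 in PTH at 6 h and 7.25, 7.42 and 7.13 in control at 6 h, and 7.23, 7.08 and 7.19 in PTH at 1 h, against 8.32, 8.23 and 8.24 in control at 1 h. The PTH arrays were alike at both times to within 0.4, and the control arrays moved by -1.0 ± 0.13. For Txnip the effect changed by 0.79 ± 0.19 (adjusted p = 0.00398, limma). The other Txnip probe set was still called lower at 6 h, with effects of -0.41 at 6 h and -0.97 at 1 h. Klf6, a Krüppel-like factor, had effects of -0.02 ± 0.09 at 6 h and -0.56 ± 0.09 at 1 h, and Map3k14, the kinase of the non-canonical NF-kappa B pathway, had effects of 0.18 ± 0.09 at 6 h and -0.40 ± 0.09 at 1 h. On the other Map3k14 probe set the effect was called at 6 h, at 0.33, and not at 1 h, at -0.34.

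The windows from 250 bases before to 50 bases after the gene starts were searched for the cyclic AMP response element, TGACGTCA, and for its 5-base core, TGACG on one strand or CGTCA on the other. RefSeq promoters (GRCm38.p6) matched 12496 of the 15711 genes, and 49 of the 63 fading genes that were raised at 1 h. The core was present for 29 of these 49 (59.2%), against 281 of 749 growing raised genes (37.5%), 437 of 1439 growing lowered genes (30.4%) and 3975 of all 12496 (31.8%). The full element was present for 5 of the 49 (10.2%), against 395 of all (3.16%). The building raised genes were, like the fading ones, already raised at 1 h. Of 45 such genes with a promoter, 20 held the core (44.4%) and 4 the full element (8.89%). The core holds a CG pair, and promoters of the fading raised genes held more of these, a median of 22.5 per window against 18 over all genes tested. Counted per promoter in place of per gene, the core was in 34 of 62 of the fading raised genes (54.8%) and in 4399 of 15824 of all (27.8%). Among promoters with at least 22.5 CG pairs, it was in 15 of 31 of the fading raised genes (48.4%) and in 2194 of 5757 of all (38.1%). Promoters with fewer CG pairs were not counted apart, so the part of CG content in the gap is not settled by these shares. These shares are a description, with no test, and a match is not shown to be a bound site. The promoters below belong to named fading genes with 2 or more matches and were chosen after the matches were seen. Nr4a1, with 4 matches, and Rgs2, with 2, also have that many and are not printed. Other fading genes, such as Tob2, Spry2 and Smad6, had a promoter without a match. Capitals mark the core or, where it extends to 8 bases, the full element. The windows are chr2:57123954-57124253 (minus strand) for Nr4a2, chr12:85473640-85473939 (plus strand) for Fos, chr17:26508423-26508722 (minus strand) for Dusp1, chr1:134079106-134079405 (minus strand) for Btg2 and chr4:141300971-141301270 (plus strand) for Epha2, each printed 5′ to 3′ along the gene.
Nr4a2: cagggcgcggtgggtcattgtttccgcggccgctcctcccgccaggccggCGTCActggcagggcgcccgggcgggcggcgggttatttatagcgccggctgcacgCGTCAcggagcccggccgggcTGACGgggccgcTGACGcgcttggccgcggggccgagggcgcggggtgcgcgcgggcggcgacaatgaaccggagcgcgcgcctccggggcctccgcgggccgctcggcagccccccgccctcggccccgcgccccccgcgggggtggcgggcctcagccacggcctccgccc
Fos: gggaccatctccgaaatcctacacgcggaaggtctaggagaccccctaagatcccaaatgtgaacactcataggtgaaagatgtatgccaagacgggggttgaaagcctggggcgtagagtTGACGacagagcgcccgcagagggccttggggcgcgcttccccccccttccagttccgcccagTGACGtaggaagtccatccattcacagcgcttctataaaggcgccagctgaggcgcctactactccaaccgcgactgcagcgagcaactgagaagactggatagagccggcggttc
Dusp1: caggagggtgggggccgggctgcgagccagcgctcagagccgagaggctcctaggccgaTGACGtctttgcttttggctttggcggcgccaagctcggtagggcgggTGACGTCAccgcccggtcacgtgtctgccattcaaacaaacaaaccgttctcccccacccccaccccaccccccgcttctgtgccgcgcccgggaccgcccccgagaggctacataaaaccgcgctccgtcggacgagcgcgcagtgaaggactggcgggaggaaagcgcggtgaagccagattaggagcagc
Btg2: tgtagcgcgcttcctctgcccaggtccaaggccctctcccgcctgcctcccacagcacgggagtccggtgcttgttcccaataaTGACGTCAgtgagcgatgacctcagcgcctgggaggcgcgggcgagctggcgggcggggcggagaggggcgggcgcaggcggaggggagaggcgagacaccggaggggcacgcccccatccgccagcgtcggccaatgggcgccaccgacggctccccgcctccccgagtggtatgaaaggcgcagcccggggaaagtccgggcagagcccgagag
Epha2: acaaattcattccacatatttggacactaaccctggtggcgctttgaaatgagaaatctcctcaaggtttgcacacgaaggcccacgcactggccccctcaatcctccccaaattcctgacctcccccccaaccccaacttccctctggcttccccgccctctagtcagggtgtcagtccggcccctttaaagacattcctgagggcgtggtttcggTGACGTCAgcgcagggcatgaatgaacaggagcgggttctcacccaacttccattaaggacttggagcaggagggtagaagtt

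The windows of Dusp1, Btg2 and Epha2 hold the full element, and those of Nr4a2 and Fos hold the core only, on both strands in Nr4a2. Where the full element occurs, the core is counted on each strand. Effects of PTH at 1 h were 3.07 ± 0.17 for Dusp1, 2.36 ± 0.13 for Btg2 and 1.0 ± 0.13 for Epha2, and 4.42 ± 0.24 for Nr4a2 and 3.63 ± 0.15 for Fos.

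Reversing genes changed sides. Id3, an inhibitor of differentiation that responds to BMP, measured 10.07, 10.22 and 10.20 in PTH at 6 h, all below 10.88, 10.86 and 10.90 in control at 6 h, and 12.29, 12.14 and 12.35 in PTH at 1 h, all above 11.39, 11.29 and 11.59 in control at 1 h. Its effects were -0.72 ± 0.10 at 6 h and 0.84 ± 0.10 at 1 h, a change of -1.56 ± 0.15 (adjusted p = 2.22e-08, limma). Bambi, a pseudoreceptor that dampens BMP and TGF-beta signals, had effects of -0.83 ± 0.12 at 6 h and 0.60 ± 0.12 at 1 h, a change of -1.43 ± 0.17 (adjusted p = 1.24e-06, limma). The largest reversal was that of Fam13c, which measured 8.02, 8.43 and 8.16 in PTH at 6 h, against 9.98, 9.79 and 9.65 in control at 6 h, and 10.06, 10.53 and 10.20 in PTH at 1 h, against 9.90, 9.73 and 9.71 in control at 1 h. Its change of effect was -2.08 ± 0.17 (adjusted p = 1.84e-09, limma). The reversal of Fam13c holds for its brightest probe set. The others had no called effect at 1 h, with 0.62, 0.30 and 0.18, and their changes were -2.19, -1.54 and -0.25. Bcl2l11, which encodes the pro-apoptotic protein BIM, changed by -1.22 ± 0.15, Enc1 by -1.36 ± 0.13 and Fam107b by -1.29 ± 0.16. Another Bcl2l11 probe set also reversed, with -1.15, and its remaining ones had no called effect at 6 h. A dimmer Enc1 probe set gave -0.27, with no called effect at either time.

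The other 7 genes raised at 1 h and lowered at 6 h were Grasp, Rpl12, Rnf43, Ankrd50, Foxc1, Trim25 and Zfp36l2, with changes of -1.20, -1.17, -1.13, -0.99, -0.93, -0.80 and -0.67. Rnf43 encodes a ubiquitin ligase that removes Wnt receptors, and Foxc1 is a forkhead factor related to Foxc2. The reverse order, below control at 1 h and above it at 6 h, was called for Ppp1r3c and Ticam1. Ppp1r3c, which directs protein phosphatase to glycogen, measured 10.85, 10.65 and 10.89 in PTH at 6 h, against 10.48, 10.36 and 10.41 in control at 6 h, and 8.33, 8.55 and 8.62 in PTH at 1 h, against 9.24, 9.17 and 9.20 in control at 1 h. Its change was 1.08 ± 0.15 (adjusted p = 7.92e-06, limma), and both treated and untreated arrays were higher at 6 h. On the other Ppp1r3c probe set the effect at 6 h, 0.21, was not called. Ticam1, an adaptor of Toll-like receptors, changed by 0.88 ± 0.12.

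A change of effect can come from the treated arrays, the untreated arrays or both. Between 1 and 6 h, 5128 genes (32.6%) moved in PTH-treated cells and 356 (2.27%) in untreated cells. The untreated arrays moved more than the treated ones in 155 of the 2704 growing genes, 4 of the 72 fading genes and none of the 15 reversing genes. Over all 15711 genes tested, this was so for 4235. Of the 63 fading genes raised at 1 h, 61 were called lower in PTH at 6 h than in PTH at 1 h, and 16 were called lower in control at 6 h than in control at 1 h. For the 939 growing raised genes, 838 were called higher in PTH at 6 h than in PTH at 1 h, and 57 were called lower in control at 6 h than in control at 1 h. The change of effect is the treated minus the untreated movement on these same arrays. These counts therefore follow in part from how the classes were chosen and test nothing further.

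Single genes show how this matters for the class names. Cebpb, a transcription factor of the C/EBP family, was flat in PTH, at 12.09, 12.33 and 12.21 at 6 h and 12.16, 12.39 and 12.16 at 1 h, while control measured 10.06, 10.22 and 10.05 at 6 h and 11.36, 10.93 and 11.14 at 1 h. Its change of 1.0 ± 0.16 (adjusted p = 4.43e-05, limma) came with movements of -0.03 in PTH, not called, and -1.03 in control, called. Jun had a change of 1.60 ± 0.19, with a movement of 0.78 ± 0.14 in PTH and of -0.83 ± 0.14 in control. Socs3, a feedback inhibitor of gp130 signalling, moved by 0.91 ± 0.21 in PTH and -1.28 ± 0.21 in control. Egr3, an early growth response factor, fell in both, by -5.19 ± 0.15 in PTH and -2.88 ± 0.15 in control, and its growing fall had a change of -2.31 ± 0.21 (adjusted p = 1.39e-08, limma). The other Egr3 probe set gave -0.07. Ddit4, an inhibitor of mTORC1, was near constant in PTH, at 12.87, 12.94 and 12.87 at 6 h and 12.48, 12.75 and 12.62 at 1 h. Its control arrays measured 11.36, 11.37 and 11.61 at 6 h and 10.12, 9.99 and 9.98 at 1 h, and its change of effect was -1.14 ± 0.16 (adjusted p = 9.6e-06, limma).

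**Figure D4:**
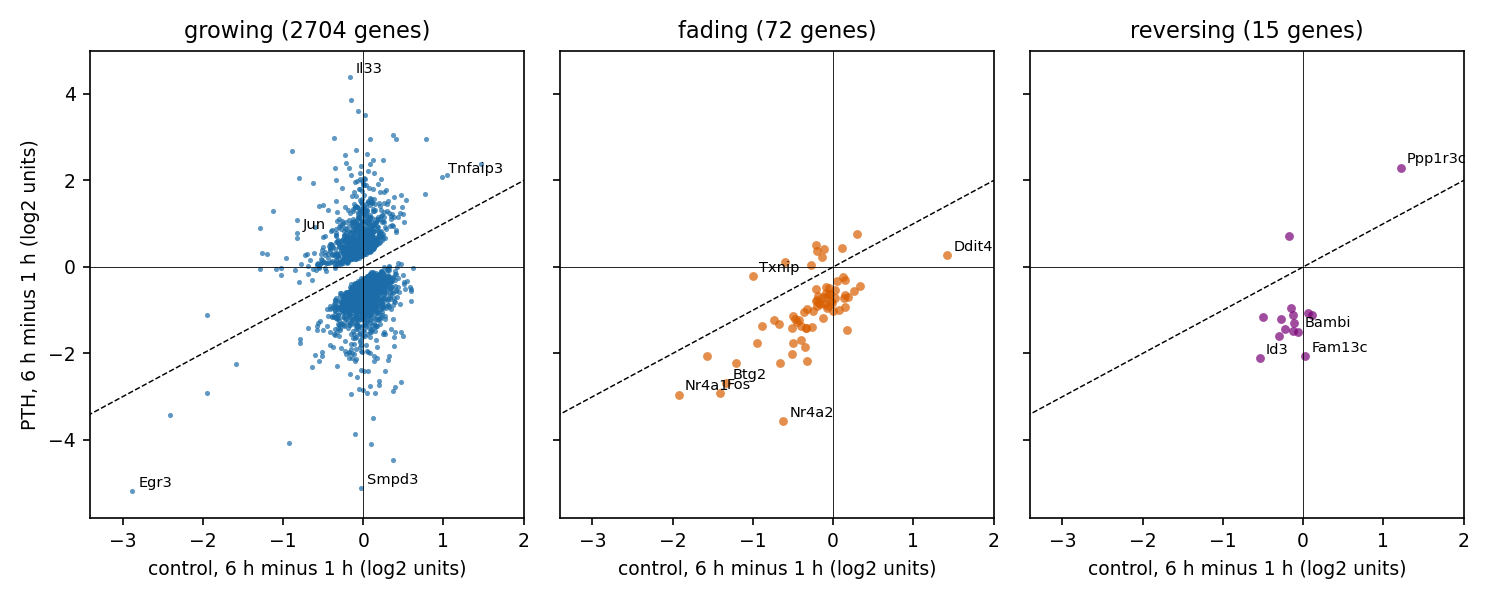
Movement between 1 and 6 h in PTH-treated cells (vertical axis) against untreated cells (horizontal axis), both as 6 h minus 1 h in log2 units, with 1 point per gene in each class. The dashed line marks equal movement. Most genes lie near 0 on the horizontal axis, while Egr3, Nr4a1, Fos, Btg2 and Ddit4 show that untreated cells moved too.

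Among 206 genes called at both times, 102 had the same sign and no called change, 84 raised and 18 lowered. The largest of these were Il6, Gem, Lif and Nfil3. Gem, a small GTPase, had effects of 3.84 ± 0.20 at 6 h and 3.06 ± 0.20 at 1 h. Its change of 0.79 ± 0.28 had an adjusted p of 0.0532 (limma), and it was called with the replicate number as a block, with an adjusted p of 0.0334 (limma). Nfil3, a basic leucine zipper repressor, had effects of 2.01 ± 0.15 at 6 h and 2.45 ± 0.15 at 1 h. Efnb2, which encodes ephrin B2, measured 8.58, 8.72 and 8.65 in PTH at 6 h, against 7.39, 7.05 and 6.93 in control at 6 h, and 8.88, 9.65 and 9.19 in PTH at 1 h, against 7.72, 7.19 and 7.13 in control at 1 h. PTH lay above control at both times, by 1.53 ± 0.16 at 6 h and 1.89 ± 0.16 at 1 h. The change of effect of Efnb2 was -0.37 ± 0.23, with an adjusted p of 0.317 (limma) and a 95% interval of -0.84 to 0.11. Of its 4 probe sets 3 had a negative change and 1 a positive one, none called. Of the genes nearest the threshold, Atxn1 was just called with a change of -0.46 ± 0.16. Its other probe sets gave -0.30 and 0.19, neither called, and with the replicate number as a block its adjusted p was 0.057 (limma). On the other side of the threshold, Pdia6, a chaperone of the endoplasmic reticulum, was just not called with 0.51 ± 0.18.

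At 24 h, on arrays whose means do not enter the change of effect, 894 genes (5.69%) were called higher and 936 (5.96%) lower in PTH than in control. Calls at all times share the estimate of spread per gene, so genes with a small spread are more readily called at each time. The part of this in the shares below was not tested. Of the 939 growing raised genes, 211 (22.5%) were higher and 53 lower at 24 h. Of the 53 building among them, 21 (39.6%) were higher. Of the 1765 growing lowered genes, 359 (20.3%) were lower and 103 higher. The median effect at 24 h was 0.10 for the growing raised genes and -0.05 for the growing lowered genes, against 0.64 and -0.55 at 6 h.

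Mineralization genes were among those still low. Dmp1 measured 3.99, 4.13 and 3.73 in PTH at 24 h, against 9.54, 7.99 and 8.15 in control, with an effect of -4.61 ± 0.34 (adjusted p = 4.13e-10, limma). Smpd3 had an effect of -2.89 ± 0.18 and Panx3 of -3.33 ± 0.16 at 24 h. Of the raised genes, Prg4 had a called effect of 2.84 ± 0.18, Socs3 of 2.18 ± 0.21 and Tnfsf11 of 0.93 ± 0.27, while Il33, at 0.39 ± 0.16, and Vdr, at -0.25 ± 0.22, were not called. Of the 63 fading genes raised at 1 h, 10 were higher, 5 lower and 48 not called at 24 h. Nr4a1 was among the lower ones, with -0.87 ± 0.13 (adjusted p = 3.01e-05, limma). Of the 15 reversing genes none was higher and 3 were lower, Id3 at -1.83 ± 0.10, Bambi at -0.68 ± 0.12 and Enc1 at -0.33 ± 0.09. Efnb2 remained raised, with effects of 1.89 ± 0.16 at 1 h, 1.53 ± 0.16 at 6 h and 1.31 ± 0.16 at 24 h.

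**Figure D5:**
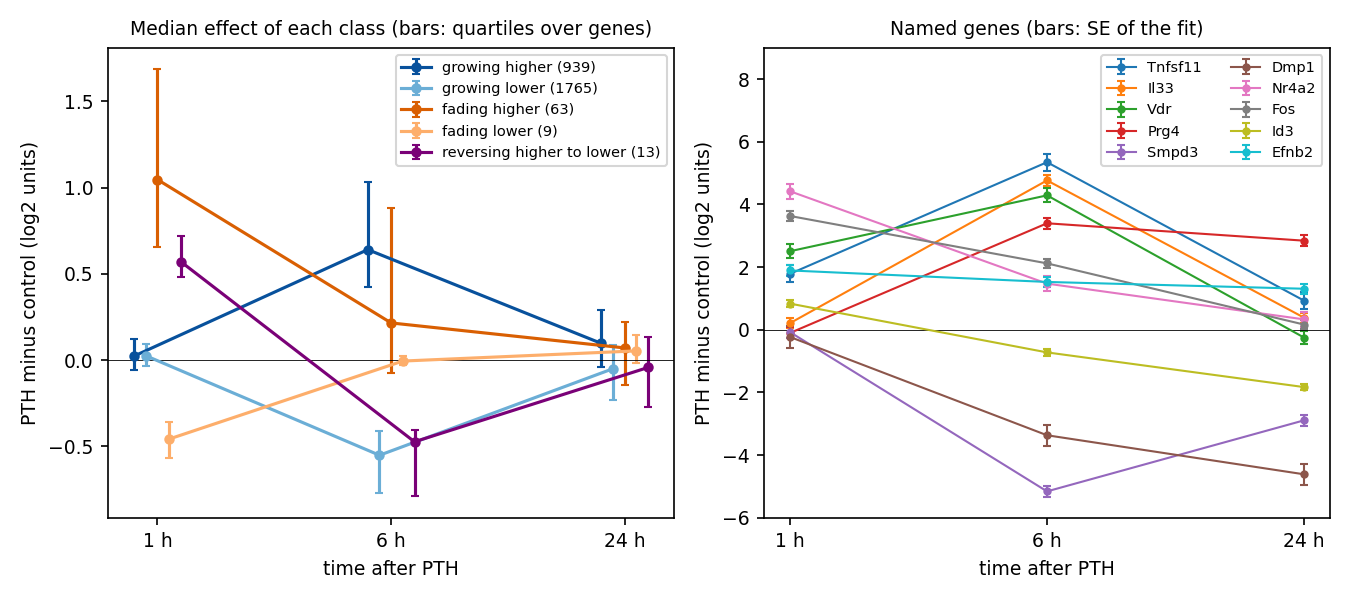
PTH minus control in log2 units at 1, 6 and 24 h. The left panel shows the median of each class with quartiles over genes, and the right panel 10 named genes with the SE of the fit. The classes were defined on the effects at 1 and 6 h, so the 24 h effects do not enter the definitions. Calls at all times share the estimate of spread per gene. Dmp1, Smpd3, Id3 and Prg4 lie away from 0 at 24 h.

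PTHrP was given at 20 nM and as another peptide length, and its effects use the same control arrays, so its values are set beside those of PTH without a comparison. For PTHrP the change of effect was 2.54 ± 0.39 for Tnfsf11, 2.88 ± 0.23 for Il33, 3.0 ± 0.16 for Cited1 and 1.09 ± 0.25 for Prg4. It was -4.10 ± 0.26 for Smpd3 and -2.76 ± 0.20 for Tnfrsf11b. Among fading genes it was -2.85 ± 0.33 for Nr4a2 and -2.09 ± 0.21 for Fos, and among reversing genes -1.67 ± 0.15 for Id3 and -1.52 ± 0.17 for Fam13c.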

How the data were processed

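The deposited values are array intensity per probe set on a linear scale (6.79 to 36257), made by the authors with RMA, per the submitters' processing notes, and normalized again for the deposit, per the series' design text. The RMA software is named without a version. RMA makes arrays alike in distribution, so a shift of most transcripts would be hidden, and differences of dim genes are understated. The table holds 45101 probe sets on 27 arrays. Of these, 64 controls were left out, 34945 carry 1 symbol, 932 several and 9160 none in the platform annotation, and 34741 matched RefSeq by gene identifier. From the deposited intensity, log2 was taken, and each gene was represented by its brightest probe set (18193 genes, 9010 with more than 1). A gene was tested where 3 or more arrays reached a log2 value of 5 (15711 genes).

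Group means were fitted to all 27 arrays with limma 3.58.1 in R 4.3.3 (18 residual and 5.54 prior degrees of freedom), two-sided, with Benjamini-Hochberg adjustment over all genes tested and a threshold of 0.05. Errors after ± are SE of the fit unless SD is stated. Precision is set by 3 arrays a group, with median SE of 0.144 (change of effect) and 0.102 (effect at 1 time). Since replicates may be technical, p-values speak only of the spread among these arrays. The comparison, the 33 gene lists (673 genes tested) and the class definitions were chosen with earlier results of these data known. Named genes are, per class and direction, the 6 largest changes called without each of the 12 arrays in turn; 4 steady genes; the 2 genes nearest the threshold; up to 4 called members per list with the largest change; and a few genes fixed by name (140 in all). The other reversing genes are named as the whole class. The script was tested on simulated data. Alternatives were 11 other settings and leaving out each array.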

Additional observations from a re-analysis of the deposited data

Results flagged for a closer look

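The PTH effect differed between 6 h and 1 h by the test of the difference itself for 2914 genes. Among the named genes, those called at both times with opposite signs on the brightest probe set were Fam13c (change of effect -2.084), Id3 (-1.557), Bambi (-1.428), Enc1 (-1.362), Fam107b (-1.294), Bcl2l11 (-1.224), Ppp1r3c (1.082) and Ticam1 (0.883). Each is a log2 difference and was called by limma in the fits without each of the 12 arrays in turn.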

How the results depend on the processing

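The count of called changes of effect, 2914, ran between 2355 and 2844 without each array in turn, and the reversing genes, 15, between 9 and 16, with 9 without replicate 3 of PTH at 1 h. Every one of the 15 reversing genes kept a called change of effect in all 12 of these fits, as did 57 of the 72 fading and 1915 of the 2704 growing genes. Requiring a change over 1.5-fold left 335 called, with 313 growing and 12 fading. Array weights gave 4346 called changes of effect, with 802 genes called at 1 h, 4388 at 24 h, 202 fading and 78 reversing. Leaving out replicate 3 of PTHrP at 1 h, which stands apart from its group, gave 3475 called changes. With it left out, 442 genes were called at 1 h, 113 were fading and 39 reversing. A fit of the 12 compared arrays alone gave 3367 called changes and 30 reversing. The cause of these shifts was not tested. Same-numbered arrays correlated over 0.1 in all 3 pairs for 1 of 6 pairs of groups, so the numbers were not taken as pairs. With the replicate number as a block (replicate block), 2833 changes were called, 2631 growing, 67 fading and 14 reversing, none of them moved by over 1.5 times. Of the named genes, this block gained the call of Gem and lost those of Atxn1 and Pappa (adjusted p = 0.0524, limma). Gem was also called with array weights, the stricter filter, the 12 arrays alone and without replicate 3 of PTHrP at 1 h, with adjusted p of 0.0174 to 0.0469. Nr4a3 changed sign with the mean over its probe sets, at -0.615. Of the other values of named genes under the 11 settings other than leaving out 1 of the compared arrays, 1455 stayed on their side of the threshold, 68 lost and 11 gained a call. Dim genes are limited by background, and small effects at 1 h by 3 arrays a group.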

Other observations

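Probe sets without a gene symbol were tested apart: of 5908 above the filter, 271 had a called change of effect. They are not named here.

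Of the energy and stress sensors, 7 of 17 had a called change, against 18.5% of all genes tested. The related glucose-regulated genes Txnip and Arrdc4 both had a positive change. Txnip, lowered at 1 h, is given above, and Arrdc4 had effects of 0.72 ± 0.16 at 6 h and -0.15 ± 0.16 at 1 h, a change of 0.87 ± 0.23 (adjusted p = 0.00883, limma). The prostaglandin list, 5 called of 11, held a synthase that faded, Ptgs2, and one that grew, Ptges, with a change of 1.18 ± 0.11 (adjusted p = 1.98e-08, limma), while the degrading enzyme Hpgd had a change of -1.33 ± 0.21. In the Notch list, 5 called of 18 and 3 without replicate 2 of PTH at 6 h or replicate 3 of PTH at 1 h, Hes1 faded with a change of -0.81 ± 0.16, and the receptor Notch3 grew with 0.75 ± 0.14.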
